A study of Homo sapiens with 3 samples.

Results

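The transcripts of the Aurora kinases AURKA and AURKB, and of 8 proteins that switch them on, anchor them or work directly with them, were examined in H660 cells exposed to JG231. The genes were AURKA, AURKB, TPX2, BORA, PLK1, INCENP, BIRC5, CDCA8, TACC3 and CEP192. They were picked by gene symbol, and each of the 10 had a single row among the 58735 gene rows of the table. H660 (NCI-H660) is an established human cell line of neuroendocrine prostate cancer, and JG231 is an allosteric inhibitor of the chaperone HSP70. Parental H660 cells received DMSO, 2.5 μM JG231 or 5 μM JG231, and RNA was taken after the 24 h treatment, with 1 library per condition and 3 libraries in all. The DMSO cells carried the vehicle, so by design the 3 libraries differ in JG231 and its dose. Since no condition was repeated, neither an error between replicates nor a p-value can be given, and every difference is between single libraries of 1 cell line. In bulk RNA, fewer cells in mitosis and less of a transcript per cell cannot be told apart.

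Levels are FPKM, fragments per kilobase of exon scaled by the library's counted fragments, as the authors deposited them. The fragment numbers behind the FPKM values were recovered as whole numbers, with library totals of 16087618 (DMSO), 20373157 (2.5 μM) and 24061352 (5 μM). Genes above 0 numbered 21862, 19352 and 17293 in the same order, fewer in the deeper libraries. With 1 library per condition, a difference in library make-up cannot be told apart from JG231. Intervals are 95% and exact. They cover counting error only, because each condition has 1 library. PCR copies of a molecule could not be recognised and count as separate fragments, so the intervals may be too narrow. The sample records call the cells prostatic adenocarcinoma, whereas the study design describes a neuroendocrine line. The neuroendocrine secretory granule protein CHGA had 46.0, 15.0 and 12.7 FPKM in the order of dose, while of 7 neuroendocrine markers listed 2 were higher and 5 lower at 2.5 μM and 0 higher and 6 lower at 5 μM, by the limit given below. Over all genes tested 36.4% were higher and 43.4% lower, then 36.5% and 45.1%. The luminal prostate markers KLK2, KLK3 and TMPRSS2 were each at or under 0.32 FPKM in every library. Mitochondrial genes took 39.8% of the summed FPKM in the DMSO library and 24.1% and 28.8% in those of 2.5 and 5 μM. A change in this share shifts the FPKM of the other genes, and the values after a rescaling are given beside most results it moves. Over all genes tested, the median log2 change against DMSO was -0.08 (2.5 μM) and -0.11 (5 μM) as deposited. It was -0.37 and -0.48 after each library was set to the same sum of FPKM over genes that are neither mitochondrial nor small RNAs, which is called the rescaling here.

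Aurora kinases drive mitosis. Aurora A (AURKA) works at centrosomes and spindle poles, where CEP192 recruits it, TPX2 binds and activates it on spindle microtubules, and TACC3 is a substrate that it sends to the spindle. With its cofactor BORA, Aurora A also activates Polo-like kinase 1 (PLK1), which opens the way into mitosis. Aurora B (AURKB) is the kinase of the chromosomal passenger complex, whose other subunits are the scaffold INCENP, survivin (BIRC5) and borealin (CDCA8). Most of these transcripts are made in G2 and M phase. In neuroendocrine prostate cancer Aurora A is of interest because it binds N-Myc and shields it from degradation, and the Aurora A inhibitor alisertib was combined with JG231 in the study.

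Promoters of G2 and M phase genes often hold a cell cycle genes homology region (CHR) downstream of CCAAT boxes. RefSeq promoter windows on GRCh38.p14, from 250 bases before to 50 bases after the transcription start, were matched for 7 of the 10 genes. AURKA, BIRC5 and TPX2 were not among the windows. The letters TTTGAA (the CHR, searched on both strands) were found in the windows of 5 of the 7 genes, BORA, CDCA8, CEP192, INCENP and PLK1, and in 15.2% of all 34796 distinct windows. The letters CCAAT (also on both strands) were found for 6 of the 7 genes and in 34.6% of all windows. Both together were present for 5 genes and in 5.93% of all windows. The CHR variant TTCGAA was found for BORA alone (1.45% of all windows), and the E-box CACGTG, an element bound by MYC family proteins, for PLK1 alone (7.20% of all windows). The 4 stretches below are shown because their genes hold the same letters and yet had different values under JG231. Capitals mark the CHR letters and the CCAAT box, and also their reverse complements where a motif lies on the other strand.
PLK1 (chr16:23678769-23678888, plus strand): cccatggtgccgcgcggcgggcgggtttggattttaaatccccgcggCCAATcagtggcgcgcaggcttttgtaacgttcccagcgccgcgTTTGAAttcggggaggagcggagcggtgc
INCENP (chr11:62123891-62124010, plus strand): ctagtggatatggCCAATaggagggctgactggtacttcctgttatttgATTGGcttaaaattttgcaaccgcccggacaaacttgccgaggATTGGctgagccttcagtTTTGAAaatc
CDCA8 (chr1:37692396-37692515, plus strand): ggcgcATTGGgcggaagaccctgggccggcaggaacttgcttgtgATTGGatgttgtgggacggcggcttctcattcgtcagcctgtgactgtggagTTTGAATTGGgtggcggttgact
CEP192 (chr18:12991142-12991261, plus strand): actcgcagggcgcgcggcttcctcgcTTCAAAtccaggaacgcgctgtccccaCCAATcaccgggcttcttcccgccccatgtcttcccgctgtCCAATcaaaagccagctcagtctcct
In PLK1, INCENP and CDCA8 the CHR letters begin 29, 10 and 23 bases before the start and read forward, and in CDCA8 they overlap a CCAAT box of the other strand. In CEP192 they lie 194 bases before the start on the other strand, upstream of both CCAAT boxes. A match of letters is a description and not evidence of a bound site.

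As deposited, AURKA was close to its DMSO level at both JG231 doses and AURKB was above it, although AURKA was lower after the rescaling and AURKB at 2.5 μM was at -0.01 once a trend with transcript length was removed. CEP192 was less than 0.5 times its DMSO level at both doses, and it was lower under every alternative in which it was tested. A gene was counted as higher or lower where its log2 change, with 0.1 added to each FPKM, exceeded 0.25 in size and its FPKM was over 1 in either library. At 2.5 μM, 2 of the 10 genes were higher (AURKB and TPX2), 3 were lower (BORA, TACC3 and CEP192) and 5 were within the limit. Over all 15746 genes tested, 36.4% were higher, 43.4% lower and 79.8% past the limit in either direction. After the rescaling 0 of the 10 were higher and 5 lower, against 25.5% and 54.8% of all genes. At 5 μM, 3 were higher (AURKB, PLK1 and BIRC5), 2 were lower (CDCA8 and CEP192) and 5 were within, against 36.5% higher, 45.1% lower and 81.6% past the limit in either direction among 15765 genes. After the rescaling this became 1 higher and 5 lower, against 24.02% and 58.6% of all genes. With the changes centred on the median gene it became 5 higher and 1 lower, against 40.6% and 41.5%. As deposited, the share of these genes past the limit was under that of the table at both doses. Their median change was 0.02 on the log2 scale with 2.5 μM and 0.12 with 5 μM, and both became negative (-0.27 and -0.25) with the rescaling. Where the mean FPKM had to reach 5, the median was 0.21 and 0.23 over the whole table and 0.13 and 0.24 over the 8 genes of the set that did. With the limit raised to 1 on the log2 scale, CEP192 alone was past it at either dose, as a lower gene. Among all genes tested, 34.6% passed that limit at 2.5 μM (12.9% higher and 21.7% lower) and 38.9% at 5 μM (14.7% higher and 24.3% lower). The comparisons of both doses share the DMSO library, so they are not independent.

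**Figure D1:**
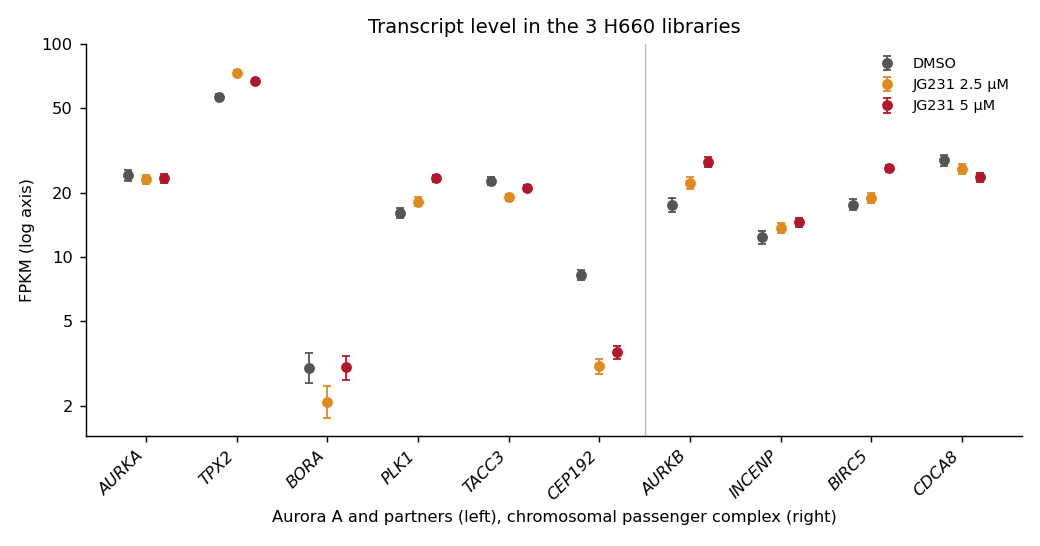
FPKM (log axis) of the 10 genes in the DMSO, 2.5 μM JG231 and 5 μM JG231 libraries, 1 point per library with its exact 95% counting interval. AURKA stays between 23.1 and 24.2, AURKB goes from 17.6 to 28.0 and CEP192 from 8.26 to 3.08 and 3.58.

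AURKA (ENSG00000087586, chr20:56369389-56392337 on GRCh38, minus strand) stood on 1139 fragments in DMSO, 1380 at 2.5 μM and 1655 at 5 μM, which are 24.2, 23.1 and 23.5 FPKM. The 3 counting intervals overlap. The change on the log2 scale was -0.06 at 2.5 μM (interval -0.18 to 0.05) and -0.04 at 5 μM (-0.15 to 0.07), at percentiles 50.7 and 52.6 of all genes tested. After the rescaling it was past the limit and lower, with -0.35 and -0.42. Its pseudogenes AURKAP1 and AURKAP2 had at most 0.24 FPKM in any library.

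TPX2 (ENSG00000088325, chr20:31739271-31801805, plus strand), the spindle activator of Aurora A, was the most abundant of the 10 in every library. Its level was 56.2 FPKM in the DMSO library, 73.1 with 2.5 μM and 66.8 with 5 μM. The lower dose gave the higher level, and the 3 intervals do not overlap. The log2 changes were 0.38 (0.32 to 0.44) at 2.5 μM and 0.25 (0.19 to 0.31) at 5 μM, the second just inside the limit of 0.25. After the rescaling they were 0.09 and -0.13, so the direction at 5 μM depends on the scaling.

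PLK1 (ENSG00000166851, chr16:23677656-23690367, plus strand), the kinase downstream of Aurora A and BORA, went from 16.1 FPKM (DMSO) to 18.2 (2.5 μM) and 23.4 (5 μM). Its level was higher at each step of dose. Its log2 change was 0.17 (0.07 to 0.28) at 2.5 μM and 0.53 (0.44 to 0.63) at 5 μM, and 0.36 between the doses. After the rescaling these were -0.12, 0.15 and 0.27, so at 2.5 μM the sign depends on the scaling. BORA (ENSG00000136122, chr13:72727749-72756198, plus strand), the cofactor through which Aurora A activates PLK1, was the lowest of the 10, although at 5 μM its interval overlaps that of CEP192. It stood on 155, 136 and 233 fragments, or 3.02, 2.09 and 3.04 FPKM in the order of dose. It was lower at 2.5 μM by a log2 change of -0.51 (-0.87 to -0.19) and equal to DMSO within counting error at 5 μM, with 0.01 (-0.29 to 0.31). After the rescaling it was lower at both doses, with -0.79 and -0.36. For genes of its level the 5 μM and 2.5 μM libraries differed with a robust standard deviation of 0.53, which is as large as its change at 2.5 μM. BORA overlaps DIS3 on the opposite strand (2.41, 3.77 and 3.82 FPKM), and the use of strand in counting is not given in the sources used here, so their reads may not be separate.

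CEP192 (ENSG00000101639, chr18:12991362-13125052, plus strand), the centrosomal scaffold that recruits Aurora A, had the largest change of the 10 at both doses. Its fragments were 1315 in DMSO, 621 at 2.5 μM and 853 at 5 μM, although the JG231 libraries were deeper. In FPKM it had 8.26, 3.08 and 3.58. Both JG231 libraries were far below DMSO, and the 5 μM value was slightly above that at 2.5 μM. The log2 changes were -1.39 (-1.56 to -1.28) and -1.18 (-1.33 to -1.08), which is 0.38 and 0.44 times the DMSO level. They were 3.03 and 2.57 times the robust standard deviation of 0.46 for genes of its level. That spread is taken between the JG231 libraries, and changes against DMSO spread more widely. They lay at percentiles 16.2 and 21.3 of the changes of all genes tested. Over all alternatives the values ran from -1.68 to -0.74. TACC3 (ENSG00000013810, chr4:1712858-1745171, plus strand), the Aurora A substrate, was at 22.8 FPKM without JG231, 19.1 with the lower dose and 21.1 with the higher. Its log2 change was -0.25 (-0.34 to -0.17) at 2.5 μM, just past the limit, and -0.11 (-0.19 to -0.03) at 5 μM, each smaller than the robust standard deviation of 0.27. After the rescaling it was past the limit at both doses (-0.55 and -0.49), and at 2.5 μM it was within the limit when centred on the median gene (-0.18) or rescaled to a common sum (-0.21). TACC3 overlaps TMEM129 on the opposite strand, which had 17.1, 13.7 and 11.6 FPKM.

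**Figure D2:**
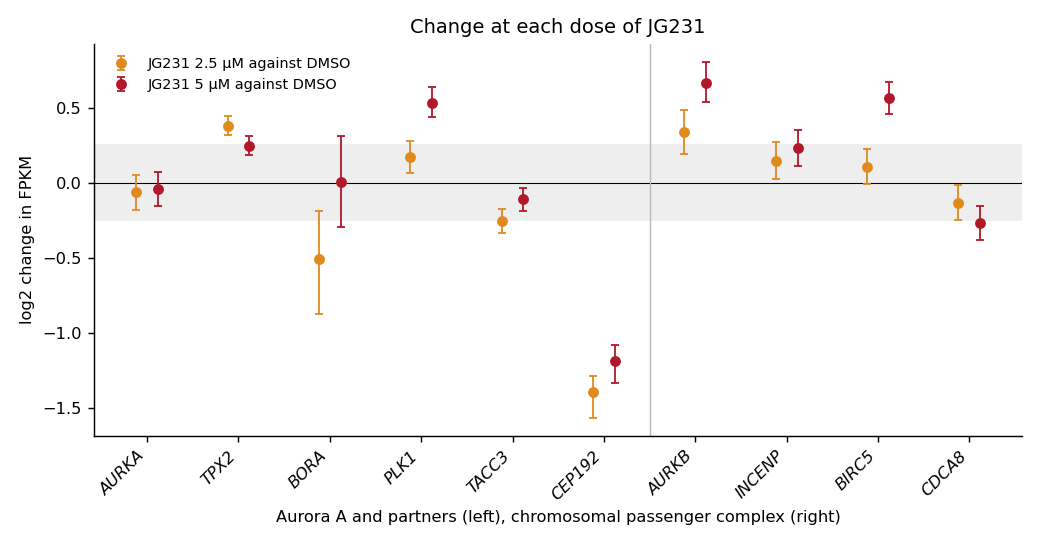
log2 change in FPKM against DMSO for the 10 genes at 2.5 μM and 5 μM JG231, with exact 95% counting intervals. The grey band marks the limit of 0.25, and CEP192 lies below it at both doses while AURKB lies above it at both.

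The 4 subunits of the chromosomal passenger complex did not keep a common direction. AURKB (ENSG00000178999, chr17:8204733-8210600, minus strand), its kinase, stood on 635, 1016 and 1510 fragments, or 17.6, 22.3 and 28.0 FPKM in DMSO and at the rising doses. The 3 intervals are separate and in the order of dose. On the log2 scale it differed from DMSO by 0.34 (0.19 to 0.48) at 2.5 μM and 0.67 (0.53 to 0.80) at 5 μM. The second was the largest increase of the set as deposited, at percentile 77.1 of all genes tested. It was 2.73 times the robust standard deviation of 0.24, which is taken between the JG231 libraries and not against DMSO. AURKB kept a positive sign after the rescaling, with 0.05 and 0.29. It had -0.01 and 0.18 when the trend with transcript length was removed, where BIRC5 (0.39) and INCENP (0.34) were among those above it at 5 μM.

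BIRC5 (ENSG00000089685, chr17:78214186-78225636, plus strand), survivin, which is also listed among the inhibitor of apoptosis proteins, was at 17.6 FPKM (DMSO), 18.99 (2.5 μM) and 26.1 (5 μM). The 5 μM library stood clear of the others, whose intervals overlap. The changes were 0.11 (-0.01 to 0.22) at 2.5 μM and 0.56 (0.46 to 0.67) at 5 μM, and -0.18 and 0.18 after the rescaling. INCENP (ENSG00000149503, chr11:62123998-62153169, plus strand), the scaffold, had 12.4, 13.7 and 14.6 FPKM. Its log2 changes of 0.15 and 0.23 were within the limit and under the robust standard deviation of 0.31, and both were negative (-0.14 and -0.15) after the rescaling. At 5 μM it was past the limit and higher when centred on the median gene (0.34) or without the length trend (0.34). CDCA8 (ENSG00000134690, chr1:37692481-37709719, plus strand), borealin, went the other way, from 28.5 FPKM (DMSO) to 26.0 (2.5 μM) and 23.7 (5 μM). The intervals of DMSO and 5 μM are separate, and that of 2.5 μM overlaps both. Its log2 change was -0.13 (-0.25 to -0.02) at 2.5 μM, under the robust standard deviation of 0.25, and -0.27 (-0.38 to -0.15) at 5 μM, close to it. After the rescaling the changes were -0.42 and -0.65, both past the limit, and centred on the median gene the change at 5 μM was within it (-0.16).

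**Figure D3:**
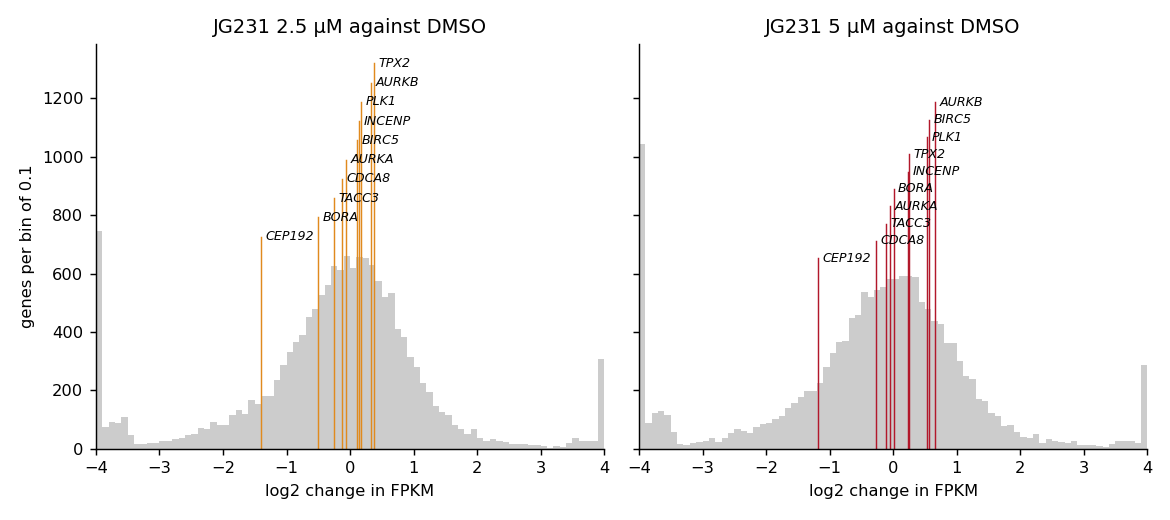
Number of genes in bins of 0.1 of the log2 change in FPKM at each dose against DMSO (grey; genes beyond 4 in size are counted in the outermost bins), with the 10 genes marked by lines whose height has no meaning. CEP192 lies at percentiles 16.2 and 21.3 of all genes tested, and AURKB at 67.1 and 77.1.

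The 5 μM and 2.5 μM libraries were compared without using the DMSO library. Of the 10 genes, 4 were higher at 5 μM than at 2.5 μM (AURKB, BIRC5, BORA and PLK1) and 0 were lower, against 26.8% higher, 30.1% lower and 56.8% past the limit among 14197 genes. None of the 10 passed a limit of 1, against 7.47% of genes higher and 8.09% lower, 15.6% in all. BORA had the largest difference, 0.52 (0.23 to 0.85), followed by BIRC5 with 0.45 (0.36 to 0.55), PLK1 with 0.36 (0.28 to 0.45) and AURKB with 0.33 (0.22 to 0.45). AURKA differed by 0.02 (-0.08 to 0.13). TPX2 and CDCA8 were the members with a negative difference, -0.13 and -0.14. When the libraries were rescaled to a common sum, the counts became 2 higher and 2 lower, against 17.4% and 44.6% of all genes. The median of the 10 went from 0.18 to 0.00, and that of all genes from -0.02 to -0.19. After the rescaling without mitochondrial and small RNA genes, 3 were higher and 0 lower, against 21.4% and 36.6% of all genes. AURKB was then within the limit, with 0.24. The medians were then 0.09 for the 10 and -0.10 for all genes.

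Ratios of genes within a library are free of any scaling between libraries. The ratio of AURKB to AURKA was 0.73 in DMSO (0.66 to 0.80), 0.96 at 2.5 μM (0.89 to 1.04) and 1.19 at 5 μM (1.11 to 1.28). Aurora B thus went from below to above Aurora A per length of exon, with 3 separate intervals. The FPKM use the length of all annotated exons of a gene together. Per length of the canonical transcript, an alternative chosen after seeing the data, the same ratio was 0.91, 1.20 and 1.49, so the relative gain is the same and the dose at which it passes 1 is not settled by these values. The ratio of TPX2 to AURKA was 2.33 (2.17 to 2.49), 3.16 (2.98 to 3.36) and 2.84 (2.69 to 3.00). Both JG231 libraries held more of the activator per kinase transcript than DMSO. The ratio of PLK1 to AURKA was 0.67, 0.79 and 0.996, and that of TACC3 to AURKA was 0.94, 0.83 and 0.90. Without the length trend TACC3 to AURKA at 5 μM turned from a log2 change of -0.07 to 0.10, while AURKB, TPX2 and PLK1 to AURKA stayed positive and CEP192 to AURKA negative at both doses. CEP192 to AURKA was 0.34 (0.32 to 0.37) in DMSO and 0.13 (0.12 to 0.15) and 0.15 (0.14 to 0.17) at the doses. BORA to PLK1 was 0.19 (0.16 to 0.22) in DMSO and lower at 2.5 μM with 0.115 (0.096 to 0.14) and at 5 μM with 0.13 (0.11 to 0.15). Per canonical length it was 0.098, 0.060 and 0.068.

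Within the passenger complex the ratios of the subunits to AURKB, as deposited, were as follows. CDCA8 to AURKB was 1.62 (1.47 to 1.79) in DMSO, 1.17 (1.08 to 1.27) at 2.5 μM and 0.85 (0.79 to 0.91) at 5 μM. This is the widest shift among the ratios to AURKB, and it is in the order of dose. Per canonical length the ratio was 0.93, 0.67 and 0.49, so whether it starts above 1 depends on the length used. INCENP to AURKB was 0.70 (0.63 to 0.78), 0.62 (0.57 to 0.67) and 0.52 (0.48 to 0.56), or 0.42, 0.37 and 0.31 per canonical length. With the trend of change on transcript length removed, which for ratios was added once the data had been seen, the direction turned: the log2 change of this ratio went from -0.19 and -0.43 to 0.20 and 0.16. That of CDCA8 to AURKB stayed negative, with -0.28 and -0.67. BIRC5 had the same FPKM as AURKB in DMSO (interval of the ratio 0.91 to 1.10) and ratios of 0.85 (0.79 to 0.93) and 0.93 (0.87 to 0.99) at the doses, or 0.82, 0.70 and 0.76 per canonical length. Without the length trend the log2 change of this ratio at 5 μM went from -0.10 to 0.21. Across the order of levels in a library, AURKA and TACC3 could not be told apart in DMSO, nor could AURKB, BIRC5 and PLK1, whose intervals overlap from neighbour to neighbour. At 5 μM AURKB and BIRC5 followed TPX2, with intervals that overlap each other. CDCA8, AURKA and PLK1 could not be told apart, nor could CEP192 (3.34 to 3.83 FPKM) and BORA (2.66 to 3.45). The order depends on the length used: per canonical length TACC3 was at 1.53 times AURKA in DMSO and PLK1 at 1.02 times.

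**Figure D4:**
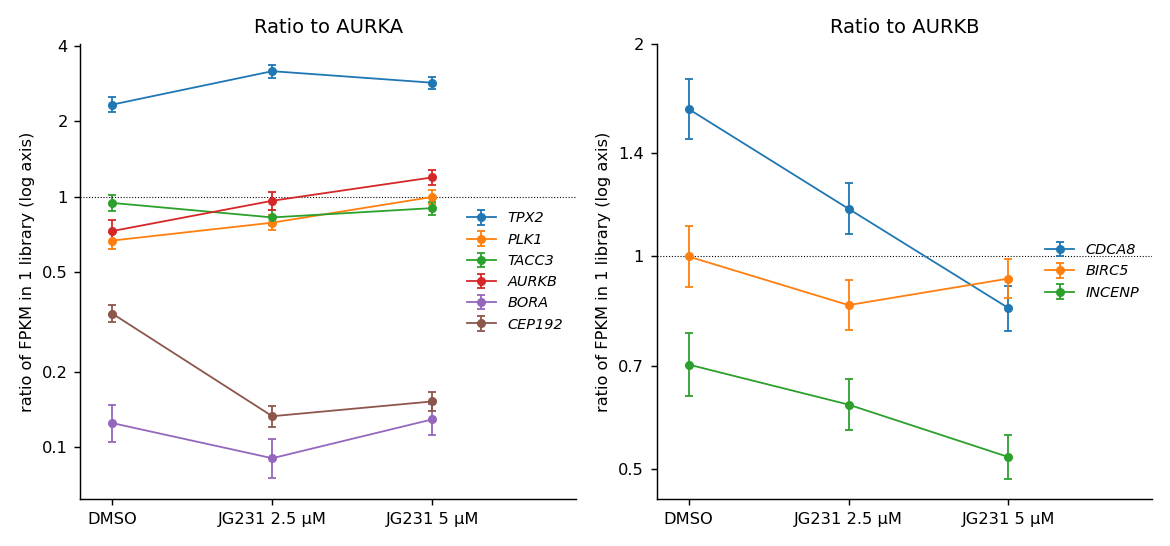
Ratio of FPKM within each library (log axis) to AURKA (left) and to AURKB (right), with exact 95% counting intervals; lines join the 3 libraries. AURKB to AURKA goes from 0.73 to 1.19, and CDCA8 to AURKB from 1.62 to 0.85.

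The changes ran with transcript length over the whole table, and the position of the 10 genes on that trend is given here because CEP192 has the longest transcript of the set and AURKB the shortest. The canonical transcript of CEP192 has 7960 bases in 45 exons and that of AURKB 1243 bases in 9 exons, while the others lie between 2033 (AURKA) and 4114 (INCENP). Over 11200 protein-coding genes with 1 FPKM or more on average, the Spearman correlation of change with canonical length was -0.26 at 2.5 μM and -0.37 at 5 μM. Over the 10 genes it was -0.33 and -0.44. These are across genes of the same libraries, which are not independent. The trend at the length of CEP192 was -0.24 and -0.44, so its changes without the trend were -1.16 and -0.74. AURKB lay on the trend at 2.5 μM, where the trend was 0.35 at its length, and above it at 5 μM, where the trend was 0.49. Without the trend AURKA was below its peers of similar length, with -0.27 and -0.34, and CDCA8 likewise, with -0.30 and -0.49. BIRC5, INCENP, PLK1 and TPX2 lay above the trend at 5 μM by 0.25 to 0.39. What the trend comes from was not tested.

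**Figure D5:**
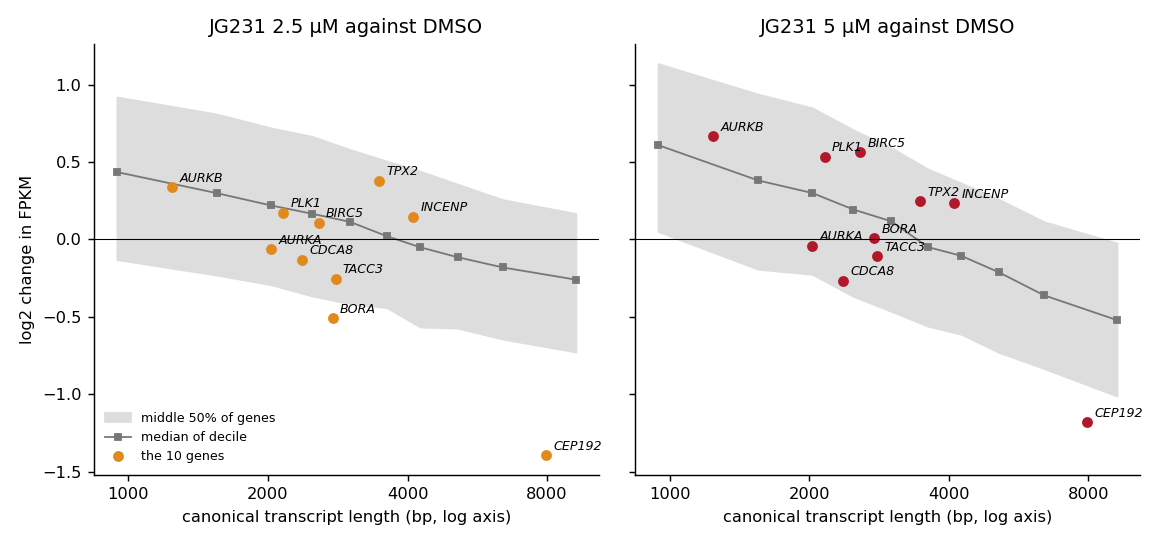
log2 change in FPKM at each dose against DMSO by canonical transcript length (bp, log axis), for the 10 genes (points) and for deciles of 11200 protein-coding genes (squares, median; grey, middle 50%). At 5 μM CEP192 lies below the grey area and AURKB above the line of medians.

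Other genes of the Aurora pathways were described as lists. Of 14 further Aurora A cofactors and centrosome or spindle proteins, 13 were tested, and 5 were lower and 1 higher at 2.5 μM while 8 were lower and 3 higher at 5 μM. That is 7.69% higher and 38.5% lower, then 23.1% and 61.5%, against 36.4% and 43.4%, then 36.5% and 45.1%, of all genes. The list's median was -0.18 and -0.57, against -0.08 and -0.11 over all genes. HMMR, a spindle protein that helps to place TPX2, went from 28.3 FPKM (DMSO) to 12.7 (2.5 μM) and 15.3 (5 μM). The clathrin heavy chain CLTC, which binds TACC3 once Aurora A has phosphorylated it, had 32.7, 22.4 and 21.2. Pericentrin (PCNT), a centrosome scaffold, had 8.06, 5.34 and 4.43. After the rescaling 10 were lower at each dose, or 76.9%, with 0 and 1 higher, against 54.8% and 58.6% of all genes lower and 25.5% and 24.02% higher. Without the length trend 4 were lower and 1 higher at 2.5 μM, and 6 were lower and 2 higher at 5 μM. The shares lower were 30.8% and 46.2%, against 38.5% and 39.2% of all genes. Those higher were 7.69% and 15.4%, against 35.6% and 36.1%. The list's medians were then -0.08 and -0.17, against -0.02 and -0.03.

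The 14 recruiters and substrates of Aurora B were spread over both directions, with 1 higher and 3 lower at 2.5 μM and 3 higher and 5 lower at 5 μM. The shares were 7.14% higher and 21.4% lower, then 21.4% and 35.7%, each under the share of all genes as deposited, and the medians were -0.04 and -0.09. After the rescaling 10 were lower and 1 higher at each dose, or 71.4% lower, which is above the 54.8% and 58.6% of all genes. HASPIN, the kinase whose histone mark recruits the passenger complex, was at 1.49 FPKM (DMSO), 3.00 (2.5 μM) and 2.26 (5 μM). Shugoshin SGO2, which binds the complex at centromeres, had 7.15, 4.57 and 3.63, and KIF20A, which carries it to the spindle midzone, had 26.5, 15.9 and 19.3. AURKC, the germline relative of Aurora B, stood on 2 fragments in DMSO, 21 at 2.5 μM and 0 at 5 μM, so it was at most 0.53 FPKM and no fold is given.

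The transcripts of proteins that switch Aurora kinases off or mark them for destruction were counted next. Of the 13 phosphatase subunits, anaphase-promoting complex parts and other ubiquitin ligase parts listed, 8 were higher and 2 lower at 2.5 μM, and 8 were higher and 0 lower at 5 μM. That is 61.5% higher and 15.4% lower, then 61.5% and 0%, against 36.4% and 43.4%, then 36.5% and 45.1%, of all genes. Their median was 0.58 and 0.61, against -0.08 and -0.11 over all genes. Without the length trend 7 were higher and 1 lower, then 8 and 1. The shares of all genes were then 35.6% and 38.5%, and 36.1% and 39.2%. After the rescaling 7 were higher and 3 lower, then 6 higher and 4 lower, against 25.5% higher and 54.8% lower, then 24.02% and 58.6%, of all genes. Applying the rescaling and the length trend to these lists was chosen after seeing the data. CDC20, an activator of the anaphase-promoting complex, went from 74.97 FPKM (DMSO) to 135.6 (2.5 μM) and 164.9 (5 μM). UBE2S, a ubiquitin-conjugating enzyme of the same complex, had 69.0, 125.1 and 156.0, and PPP2R2A, a regulatory subunit of phosphatase PP2A, had 5.01, 16.6 and 16.95. CDC20 and UBE2S are themselves made in G2 and M phase, and their log2 changes at 5 μM, 1.14 and 1.17, were above that of every one of the 10 genes. Among 19 regulators of G2 and M phase transcription, 9 were higher and 5 lower at both doses. This is 47.4% and 26.3% of the list, against 36.4% and 43.4% of all genes at 2.5 μM and 36.5% and 45.1% at 5 μM, and its medians were 0.24 and 0.16. After the rescaling 7 were higher and 6 lower, then 7 and 8, against 25.5% and 54.8%, then 24.02% and 58.6%, of all genes. The list's medians were then -0.05 and -0.21, above the -0.37 and -0.48 of all genes. Ranked by the smaller of a gene's changes at the doses, in the same direction, the leading genes were CDKN1A, the p21 inhibitor of cyclin-dependent kinases, with 97.6, 201.9 and 250.2 FPKM, NFYC, a subunit of the CCAAT-binding factor, with 10.4, 20.4 and 20.3, and E2F4 with 11.0, 21.1 and 24.1. RBL2, a pocket protein of the repressor that holds such genes down outside the cell cycle, was named after its values were seen. It had 7.41, 4.26 and 2.48 FPKM, and its log2 change of -1.54 at 5 μM was larger in size than theirs.

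On the side of N-Myc, the partner of Aurora A, MYCN stood on 29, 12 and 35 fragments, under 1 FPKM in every library, and was not tested. Of the 6 tested genes of the N-Myc list, 3 were higher and 1 lower at each dose, against 36.4% and 43.4%, then 36.5% and 45.1%, of all genes. After the rescaling 0 and then 2 were higher and 3 lower at each dose, against 54.8% and 58.6% of all genes lower and 25.5% and 24.02% higher. The ubiquitin ligase HUWE1 was at 17.3 FPKM (DMSO), 8.07 (2.5 μM) and 6.45 (5 μM), and FBXW7, the ligase that Aurora A opposes, had 1.50, 1.27 and 1.46. USP7, a deubiquitinase, had 16.6, 19.9 and 17.1, and STUB1, the ligase that works with HSP70, had 12.7, 12.8 and 16.5. The inducible HSP70 genes HSPA1A and HSPA1B are near-identical, so counting could split their reads, and had 7.21, 8.72 and 14.2 FPKM and 25.2, 36.4 and 52.5 FPKM.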

How the data were processed

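RNA-seq of H660 cells was analysed, with 1 library per condition. Per the paper's methods, reads were aligned with HISAT and quantified with StringTie, and the authors deposited gene-level FPKM. The submitters' processing notes name HISAT2, featureCounts, GRCh38 and hg38, and no versions. Use of strand in counting is not given in the sources used here. The sample records describe stranded libraries.

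Rows were matched by identifier to GENCODE release 44 (58207 of 58735). FPKM was taken as fragments over exon length and library total. Totals came from genes with a single transcript. Whole fragments in all 3 libraries at 1 common length, within 0.001, were found for 99.9% of the 24136 genes above 0. For the 10 genes this length equalled the GENCODE exon length in 6. Fragments served for intervals (Poisson for levels, Clopper-Pearson for ratios) and no count model was fitted.

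Changes were log2 of FPKM plus 0.1, and a gene was tested with FPKM over 1 in either library, past the limit over 0.25. These values follow the paper's methods, and "either library" is a reading of its filter. The robust standard deviation is that of the difference between the JG231 libraries taken over 500 genes of similar mean FPKM. It is not the spread of changes against DMSO, which is wider. A limit of 1 was passed by 34.6% and 38.9% of genes against DMSO and by 15.6% between the doses. The length trend was a lowess fit (fraction 0.3). The genes, lists and motifs were chosen with earlier results of these data known. Named genes are all 10, the 3 of each other list with the largest change of the same sign at both doses, and all of the N-Myc list and AURKC. Some marker genes are not reported here. Alternatives were pseudocounts of 1 and 0.01, no filter, a mean FPKM of at least 5, a limit of 1, 2 rescalings, centring, removal of the length trend and summing of rows with the same symbol. Scripts were tested on simulated data. Software was scipy 1.17.1 and statsmodels 0.14.6 with numpy 2.4.6, under Python 3.11.15; tables were handled by pandas 2.3.3 and plots by matplotlib 3.10.9.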

Additional observations from a re-analysis of the deposited data

How the results depend on the processing

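The number of the 10 genes past the limit was 5 at 2.5 μM, 5 at 5 μM and 4 between the doses, against 79.8%, 81.6% and 56.8% of all genes. With a limit of 1 on the log2 scale it was 1, 1 and 0, against 34.6%, 38.9% and 15.6%. With a mean FPKM of at least 5, where BORA and CEP192 drop out, it was 3 at 2.5 μM. Of the 7583 genes that met this filter, 74.1% were past the limit. The median change at 2.5 μM, 0.02, became -0.15 with the length trend removed and -0.27 with rescaling without mitochondrial and small RNA genes. At 5 μM the median of 0.12 became 0.24 with a mean FPKM of at least 5, -0.0087 with rescaling to a common sum and -0.25 with rescaling without mitochondrial and small RNA genes. Between the doses 0.18 became 0.0013 with rescaling to a common sum, while the median of all genes went from -0.02 to -0.19. AURKB at 2.5 μM changed sign with the length trend removed (-0.012). Of 264 recomputed changes of single genes, 201 moved by less than the distance from the middle of their counting interval to its end. Another 62 moved by more, and 1 that was past the limit changed sign. Some of the 201 could not move at all. A looser or stricter cut on level decides only whether a gene is tested. Summing rows by symbol changes nothing where each of the 10 genes has 1 row. The count of 201 is therefore not a measure of stability. Over all genes, the share of higher genes among those past the limit at 5 μM was 44.7% as deposited, 64.1% where the mean FPKM was 5 or more and 29.1% with rescaling without mitochondrial and small RNA genes. At 2.5 μM these were 45.6%, 64.8% and 31.7%. Between the doses it was 47.1%, 28.0% with rescaling to a common sum and 36.9% with rescaling without mitochondrial and small RNA genes. No paired analysis was possible because each condition has 1 library. Depth limits BORA, with 136 to 233 fragments, and AURKC and MYCN, which are not read as changes.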
